A study of Homo sapiens with 12 samples.

Results

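The mitochondrial respiratory chain and ATP synthase are built from subunits encoded in 2 genomes, and 88 protein-coding genes for these subunits were followed here in A549 cells with and without GFI1. The rule took, by gene symbol and protein-coding biotype, the NDUFA, NDUFB, NDUFC, NDUFS and NDUFV genes of complex I, the SDH genes of complex II, the UQCR genes and CYC1 of complex III, the COX genes of complex IV, the ATP5 genes of complex V and the 13 mitochondrially encoded genes. Of 58735 gene identifiers, 88 met these rules, and all 88 were among the 17829 genes with enough counts to be tested. The nuclear members numbered 75, of which 36 belonged to complex I, 4 to complex II, 9 to complex III, 11 to complex IV and 15 to complex V. NDUFA4 was counted with complex IV, since its protein is a subunit of that enzyme.

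A549 is an established human lung adenocarcinoma line that grows attached to the dish. GFI1 is a zinc finger protein that acts mostly as a transcriptional repressor and is needed in early blood cell development. The study asked which transcripts GFI1 changes in A549 cells on a substrate and in suspension. Control and GFI1-expressing A549 cells were kept in RPMI1640 medium with 10% serum, and each was collected either attached to culture-treated plates (untreated) or floating, after forced suspension for 48 hours on ultra-low attachment plates. The 4 groups, attached control, attached GFI1, floating control and floating GFI1, held 3 libraries each. GFI1 was delivered by a lentivirus with a GFP marker, by which the transduced cells were sorted. The labels do not say whether the controls of the RNA-Seq carried a vector, so GFI1 and transduction cannot be told apart in them. No source states that the libraries came from separate cultures, and p-values therefore measure the spread between these samples, which may be technical. In bulk RNA, fewer cells of a kind and less RNA per cell cannot be told apart.

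Complexes I to IV pass electrons from NADH and succinate to oxygen, and complexes I, III and IV pump protons across the inner mitochondrial membrane, a gradient that complex V uses to make ATP. The mitochondrial genome encodes core subunits of complexes I, III, IV and V but none of complex II. Its genes are read from both strands as long precursor transcripts that are cut into mRNAs. MT-ATP8 and MT-ATP6 share 46 bases and MT-ND4L and MT-ND4 share 7, so neither pair can be cut into separate full mRNAs. Nuclear subunits are transcribed singly, and the proteins are imported and assembled with the mitochondrial subunits, and many of their promoters carry sites for the factors NRF1, GABPA and YY1.

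Libraries held 17014188 to 20748677 counts each, and between 26273 and 28042 genes were detected. GFI1 had 4 to 12 counts in control and 5154 to 12796 in GFI1 libraries, as the labels state. Epithelial markers moved with GFI1. KRT8 had 61323 to 107552 counts in control and 25961 to 39094 in GFI1 libraries, KRT18 28620 to 47808 and 8281 to 14410, CDH1, the epithelial cadherin, 1376 to 2186 and 66 to 142, and EPCAM 23 to 45 and 6 to 16, without overlap, whereas KRT19 had 13 to 38 and 29 to 89. The part of this shift in the results was not tested. Of the markers of blood cells, PTPRC (0 to 1 count) and CD3E (0) were at or near 0. CD79A had 3 to 12 counts in control and 5 to 29 in GFI1 libraries. TMM scaling factors were 0.939 to 0.971 in control and 1.04 to 1.06 in GFI1 libraries. With library totals alone in their place, the median log2 fold change of all tested genes under GFI1 went to 0.14 from -0.01 in attached cells and to 0.14 from 0.01 in floating cells, and 61.5% and 61.4% of the called genes were higher, compared with 47.4% and 48.5%. Fold changes under GFI1 are therefore relative to the typical gene. For the GFI1 effects on most groups of members and lists, counts with library totals alone (without TMM) are given too. For suspension they are given in part, and for the interaction they are not.

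To show the sequences near which these subunit mRNAs begin, promoters of 300 bases (250 before to 50 after the start) were taken from RefSeq on GRCh38.p14, which held 61 of the 75 nuclear members. The letters GCGCANGCG, a core of NRF1 sites, stood on either strand in 20 of the 61 member promoters (32.8%), compared with 7.52% of all 35116 promoters of this length. GCCATNTTG, a core of YY1 sites, stood in 11 (18.0% compared with 2.92%), and CCGGAAGT, a core of ETS sites such as that of GABPA, in 9 (14.8% compared with 4.14%). The letters TCAAGGTCA, bound by the receptor ERRA, stood in the SDHD promoter alone among members (1.64% compared with 0.353%), and AATCACNGC, a core of GFI1 sites, in that of ATP5F1E alone (1.64% compared with 1.03%). Overlapping matches were not merged, and one palindrome-like stretch can match the NRF1 letters on both strands. Shown here in capitals are the matches in the promoters of the genes with the lowest fold change under GFI1 in complexes I, II, IV and V, and in ATP5PO, a complex V gene that did not pass the test in attached cells. NDUFA12 and ATP5PO held the NRF1 letters, SDHB held the YY1 letters on the other strand, and COX6B1 and ATP5MC1 held none of these motifs.
NDUFA12, chr12:95003648-95003947, minus strand: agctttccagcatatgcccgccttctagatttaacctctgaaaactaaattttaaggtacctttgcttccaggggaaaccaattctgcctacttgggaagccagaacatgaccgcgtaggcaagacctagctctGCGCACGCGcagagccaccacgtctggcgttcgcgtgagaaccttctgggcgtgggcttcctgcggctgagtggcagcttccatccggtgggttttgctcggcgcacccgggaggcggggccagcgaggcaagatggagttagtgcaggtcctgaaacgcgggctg
SDHB, chr1:17053983-17054282, minus strand: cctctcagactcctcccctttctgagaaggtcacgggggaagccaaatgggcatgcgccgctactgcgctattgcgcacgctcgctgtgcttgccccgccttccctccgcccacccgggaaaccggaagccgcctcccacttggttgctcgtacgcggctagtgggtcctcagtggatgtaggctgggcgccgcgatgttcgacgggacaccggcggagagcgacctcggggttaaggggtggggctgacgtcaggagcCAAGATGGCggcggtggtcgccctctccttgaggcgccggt
COX6B1, chr19:35648073-35648372, plus strand: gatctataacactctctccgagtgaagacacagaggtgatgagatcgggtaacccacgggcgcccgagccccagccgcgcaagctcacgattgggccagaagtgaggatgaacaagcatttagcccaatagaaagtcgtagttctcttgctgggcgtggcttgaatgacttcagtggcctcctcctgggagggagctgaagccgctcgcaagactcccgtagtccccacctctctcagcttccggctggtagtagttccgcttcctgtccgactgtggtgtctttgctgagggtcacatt
ATP5MC1, chr17:48892537-48892836, plus strand: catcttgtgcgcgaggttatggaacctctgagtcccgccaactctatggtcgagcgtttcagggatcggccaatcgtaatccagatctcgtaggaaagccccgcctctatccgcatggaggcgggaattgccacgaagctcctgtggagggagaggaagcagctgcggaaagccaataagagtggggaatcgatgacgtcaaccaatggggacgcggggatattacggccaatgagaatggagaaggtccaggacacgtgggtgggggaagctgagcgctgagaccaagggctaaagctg
ATP5PO, chr21:33915755-33916054, minus strand: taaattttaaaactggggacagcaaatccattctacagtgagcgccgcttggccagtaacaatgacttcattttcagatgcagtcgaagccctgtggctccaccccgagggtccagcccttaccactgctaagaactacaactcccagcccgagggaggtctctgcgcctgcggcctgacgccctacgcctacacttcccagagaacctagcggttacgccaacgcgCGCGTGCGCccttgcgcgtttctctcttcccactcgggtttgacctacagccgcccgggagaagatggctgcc

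With TMM scaling, GFI1 went with lower mRNA of most nuclear subunits in attached cells. By edgeR's quasi-likelihood test (Benjamini-Hochberg adjusted over all genes tested), 51 of 75 nuclear members fell and 3 rose, where 32.8% of all tested genes fell and 29.5% rose. The median log2 fold change was -0.25 over the nuclear members and -0.01 over all genes. Without TMM, 32 members fell and 9 rose, with a median of -0.10, where 24.5% of all genes fell and 39.3% rose. Complex III had the lowest median (-0.35, 8 of 9 members lower), and the medians were -0.31 for complex V (12 of 15), -0.26 for complex IV (7 of 11), -0.24 for complex II (3 of 4) and -0.20 for complex I (21 of 36). Without TMM, fewer fell in each complex: 6 in complex III, 8 in complex V, 4 in complex IV, 2 in complex II and 12 in complex I, where 6 others rose and the median was -0.05. The 3 members that rose were COX6C of complex IV (log2 fold change 0.16) and NDUFA5 (0.20) and NDUFB4 (0.13) of complex I, the last 2 named after their values were seen. The NDUFB4 call was lost without attached control replicate 3 (0.10, adjusted p = 0.1), without attached GFI1 replicate 1 (0.11, adjusted p = 0.073) and with no low-count filter (0.11, adjusted p = 0.101), while that of NDUFA5 was kept in each refit.

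In floating cells, 61 of the 75 nuclear members fell with TMM scaling, compared with 31.1% of all genes lower and 29.3% higher, and the median was -0.33 against 0.01 over all genes. No nuclear member rose by edgeR, 0 were higher at an unadjusted p under 0.05, and DESeq2 likewise called 61 lower and 0 higher. Without TMM 47 fell and 4 rose (median -0.20), where 24.2% of all genes fell and 38.4% rose. With TMM, all 15 members of complex V and all 4 of complex II fell, as did 8 of 9 in complex III, 10 of 11 in complex IV and 24 of 36 in complex I, with medians of -0.36, -0.33, -0.43, -0.37 and -0.25. Without TMM, 11 members of complex V, 2 of II, 7 of III, 9 of IV and 18 of I fell, and 3 of complex I rose (median of complex I -0.12). The GFI1 effects in attached and floating cells come from separate libraries, and 49 nuclear members fell in both, 2 in attached cells alone and 12 in floating cells alone by the test in each. The share of all genes that fell in both is not given here, so no excess over it can be read from the 49. Of these 14, the interaction called COX7B and NDUFB1, and both calls were lost without certain single libraries, given further on. The plot of fold changes by complex shows each member.

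**Figure D1:**
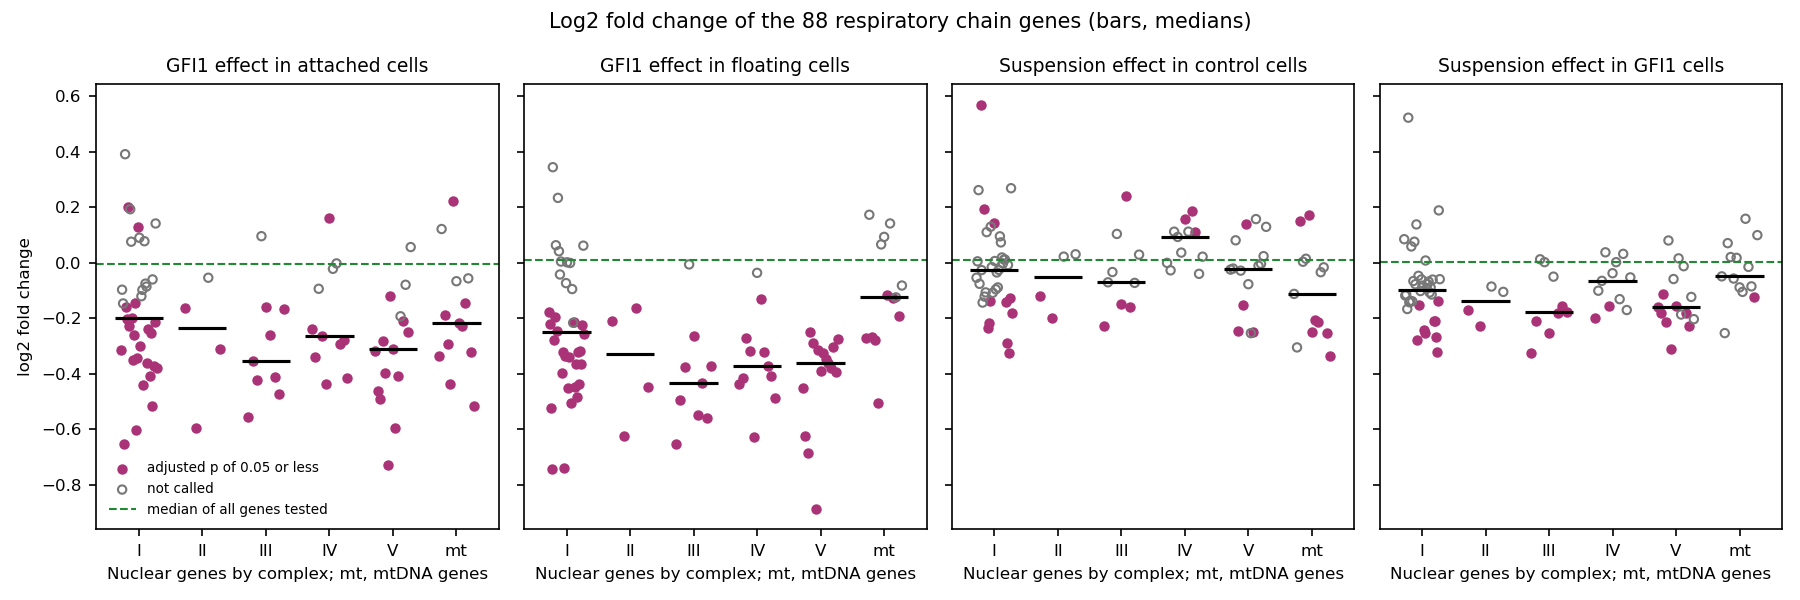
Log2 fold change of each of the 88 members (y axis) by complex and genome (x axis) for the GFI1 effect in attached and in floating cells and for the suspension effect in control and in GFI1 cells. Each point is 1 gene, filled where the adjusted p was 0.05 or less, black bars are medians and the dashed line is the median of all genes tested. For the GFI1 effects, 64 and 68 of the 75 nuclear points lie below 0, and for the suspension effect in control cells the complex IV median (0.09) lies above the line.

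Complex I takes electrons from NADH, and its lowest nuclear member was NDUFA12, an accessory subunit of its peripheral arm (ENSG00000184752, chr12:94897055-95003770, minus strand). Attached control libraries held 53.8, 55.7 and 48.8 CPM (counts relative to the library total scaled by TMM) of NDUFA12, and attached GFI1 libraries 35.5, 34 and 31.4. Floating control libraries held 47.8, 47.6 and 54.7, and floating GFI1 libraries 29.9, 28.3 and 31.4. All 6 GFI1 libraries were thus below all 6 controls, and the log2 fold change was -0.65 ± 0.07 (SE; adjusted p = 4.4e-09, edgeR) in attached and -0.74 ± 0.07 (adjusted p = 6.7e-10) in floating cells. NDUFS8, which carries iron-sulfur clusters in the core of the enzyme, had 145, 122 and 134 CPM in attached control and 104, 100 and 105 in attached GFI1 cells, and 105, 112 and 103 in floating control and 80.9, 81.8 and 85.3 in floating GFI1 cells. Its floating control libraries lay at the level of the attached GFI1 libraries. It fell by 0.37 under GFI1 in each state on the log2 scale. Of the 7 nuclear core subunits of complex I, 4 fell in attached and 6 in floating cells, and of the 29 accessory subunits 17 and 18 fell. At the other end stood NDUFA13, whose fold changes under GFI1 (0.39 ± 0.23 and 0.34 ± 0.21) did not pass the test (adjusted p = 0.141 and 0.156) at 2.14 to 5.79 CPM. Its exons share 21.0% of their bases with another annotated gene.

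Complex II oxidises succinate and is the sole complex encoded by nuclear genes alone. SDHB, its iron-sulfur subunit (ENSG00000117118, chr1:17018722-17054170, minus strand), had 82.3, 67.8 and 70.2 CPM in attached control, 46.9, 51.6 and 46.9 in attached GFI1, 63.1, 66.3 and 62.5 in floating control and 41.4, 40.7 and 42.2 in floating GFI1 cells. The GFI1 libraries were below the controls in both states without overlap, and the log2 fold changes were -0.60 ± 0.06 (adjusted p = 4.92e-09) and -0.63 ± 0.06 (adjusted p = 3.99e-09). SDHD, a membrane anchor, fell by 0.31 and 0.45, and SDHA, the flavoprotein that holds the active site, by 0.16 and 0.21, on the log2 scale. The other anchor, SDHC, did not pass the test in attached cells (-0.05 ± 0.04, adjusted p = 0.286) and fell by 0.16 in floating cells (adjusted p = 0.00238). Without TMM, the calls of SDHA in both states and of SDHC in floating cells were lost.

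Complex III hands electrons to cytochrome c. CYC1, its cytochrome c1 (ENSG00000179091), had 298, 299 and 290 CPM in attached control and 214, 190 and 199 in attached GFI1 cells. In floating cells it had 257, 245 and 255 CPM in control and 156, 156 and 169 in GFI1 libraries. The 4 groups of CYC1 did not overlap, with log2 fold changes under GFI1 of -0.56 ± 0.05 (adjusted p = 7.64e-11) and -0.65 ± 0.05 (adjusted p = 4.56e-12). UQCR11, a small accessory subunit, fell by 0.42 and 0.38 at 10.8 to 19.5 CPM, the floating call being lost without TMM (-0.25, adjusted p = 0.0513). UQCRB, which binds ubiquinone, was the single complex III member that did not pass the test in either state (0.10 ± 0.05, adjusted p = 0.0795, in attached and -0.01 ± 0.05, adjusted p = 0.915, in floating cells). Without TMM, UQCRB turned from -0.01 to 0.12 in floating cells (adjusted p = 0.0286).

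Complex IV reduces oxygen. COX6B1, which joins the dimer on the intermembrane side (ENSG00000126267, chr19:35648223-35658861, plus strand), had 282, 246 and 261 CPM in attached control, 197, 194 and 191 in attached GFI1, 265, 279 and 264 in floating control and 168, 169 and 187 in floating GFI1 cells. All GFI1 libraries were below all controls, by -0.44 ± 0.05 (adjusted p = 3.5e-08) and -0.63 ± 0.05 (adjusted p = 5.35e-11) on the log2 scale. COX4I1, the largest nuclear subunit, fell by 0.24 and 0.44, the attached call being lost without TMM (-0.09, adjusted p = 0.059). The attached calls of COX8A (-0.28) and COX6A1 (-0.26) rested on attached GFI1 replicate 2: COX8A had 119, 77.1 and 107 CPM in attached GFI1 libraries against 125, 119 and 122 in attached controls. Without that library the fold change of COX8A was -0.12 (adjusted p = 0.0808) and that of COX6A1 -0.14 (adjusted p = 0.0628), and without TMM both calls were lost too. COX6C, which rose in attached cells by 0.16 (adjusted p = 0.0122), lost its call without attached control replicate 3 (0.12, adjusted p = 0.0944), attached GFI1 replicate 1 (0.13, adjusted p = 0.0667) or attached GFI1 replicate 2 (0.12, adjusted p = 0.0821).

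Complex V is the ATP synthase, and it held the lowest single fold change of the 88 members in both states. ATP5MC1, which encodes a copy of the rotor ring subunit c (ENSG00000159199, chr17:48892765-48895871, plus strand), had 127, 118 and 122 CPM in attached control and 79.6, 65.4 and 76.5 in attached GFI1 cells. Floating libraries held 112, 106 and 112 CPM in control and 59.2, 57.1 and 61.7 in GFI1 cells. All 6 GFI1 libraries were below all 6 controls, with log2 fold changes of -0.73 ± 0.06 (adjusted p = 2.39e-11) and -0.89 ± 0.06 (adjusted p = 8.89e-13). The 5 subunits of the catalytic F1 head fell in both states, with medians of -0.40 and -0.45 over them. Without TMM, 4 of the 5 fell in each state, and the calls of ATP5F1D, the delta subunit, were lost (-0.13 and -0.12, adjusted p = 0.0627 and 0.111). ATP5F1B, the catalytic beta subunit, was named after its values were seen and had the highest level per kilobase of the nuclear members, 490 ± 17.1 CPM per kilobase (SD, n = 3) in attached control, 355 ± 4.43 in attached GFI1, 482 ± 6.66 in floating control and 313 ± 11 in floating GFI1 cells. Of the 10 subunits of the membrane part and stalk, 7 fell in attached and 10 in floating cells, or 4 and 7 without TMM. ATP5PO, in the stalk, had a fold change of 0.06 ± 0.10 in attached cells (adjusted p = 0.645) and fell by 0.28 in floating cells (adjusted p = 0.0207), a call lost without TMM (-0.15, adjusted p = 0.198) and without floating control replicate 1 (-0.22, adjusted p = 0.109), floating control replicate 2 (-0.20, adjusted p = 0.132) or floating GFI1 replicate 1 (-0.21, adjusted p = 0.107). ATP5ME, also of the membrane part, fell by 0.59 and 0.33 at 7.31 to 12.4 CPM. Its floating call was lost without TMM (-0.20, adjusted p = 0.133), floating control replicate 1 (-0.26, adjusted p = 0.0791) or floating GFI1 replicate 2 (-0.28, adjusted p = 0.055). Of its bases, 61.3% of the exonic ones also lie in MYL5 on the opposite strand, and reads of the pair cannot be told apart where counting does not use strand.

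**Figure D2:**
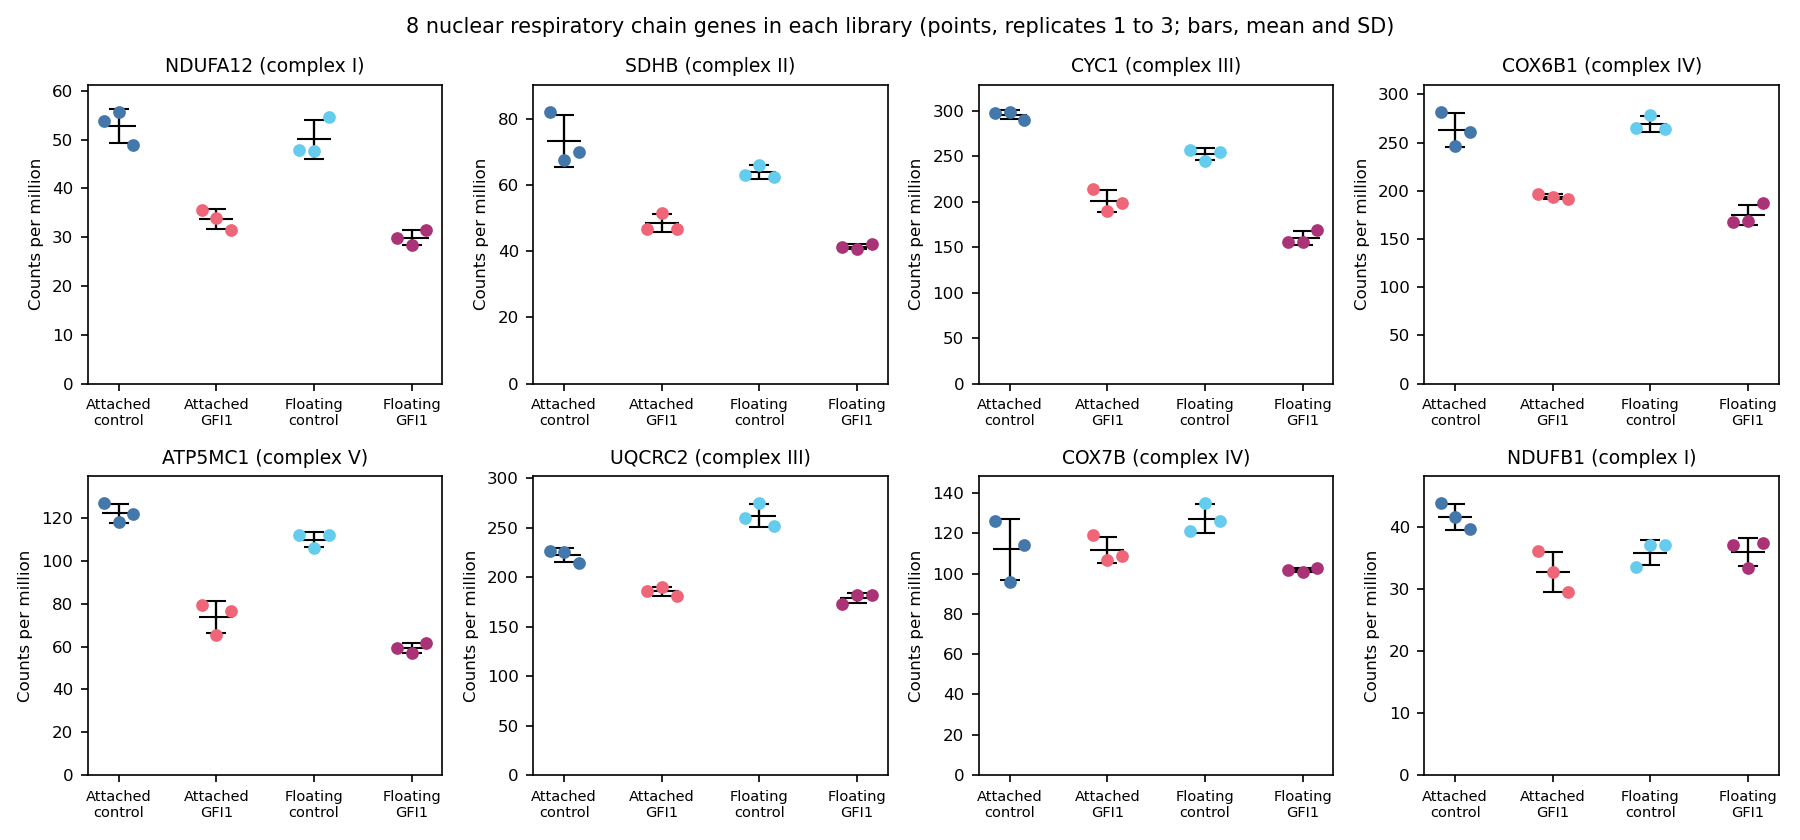
CPM scaled by TMM (y axis, from 0) of 8 nuclear members, a panel each, in the 4 groups (x axis). Each point is 1 library, and bars are the mean and SD of 3. In NDUFA12, SDHB, CYC1, COX6B1, ATP5MC1 and UQCRC2 the GFI1 libraries lie below the controls of the same state, and the floating control libraries of UQCRC2 (252 to 275 CPM) lie above its other 3 groups.

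Summed over members, nuclear complex I had 2190 ± 63.5 CPM (SD, n = 3) in attached control, 1880 ± 81.4 in attached GFI1, 2110 ± 5.77 in floating control and 1730 ± 45.1 in floating GFI1 cells. Complex III had 1520 ± 56.9, 1230 ± 30, 1460 ± 25.2 and 1100 ± 11.5, and complex V had 2980 ± 110, 2300 ± 65.1, 2930 ± 40.4 and 2060 ± 35.1 CPM in the same order. For each of these sums, and for complex II (405 to 411 CPM in attached GFI1 against 459 to 488 in attached control libraries) and complex IV (1350 to 1450 against 1560 to 1720), the GFI1 libraries lay below the controls of the same state without overlap. The sum of all 75 nuclear members ran from 8530 to 9140 CPM in attached control, 7040 to 7440 in attached GFI1, 8570 to 8730 in floating control and 6500 to 6670 in floating GFI1 libraries. Members of a group moved with their library: attached control replicate 1 was the highest of its group for 51 of the 75 nuclear members and replicate 2 the lowest for 41, and in attached GFI1 cells replicate 1 was the highest for 46 and replicate 2 the lowest for 38. The part of these libraries in the counts of called members was not tested beyond leaving each out, after which between 44 and 51 nuclear members fell in attached and between 58 and 62 in floating cells.

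**Figure D3:**
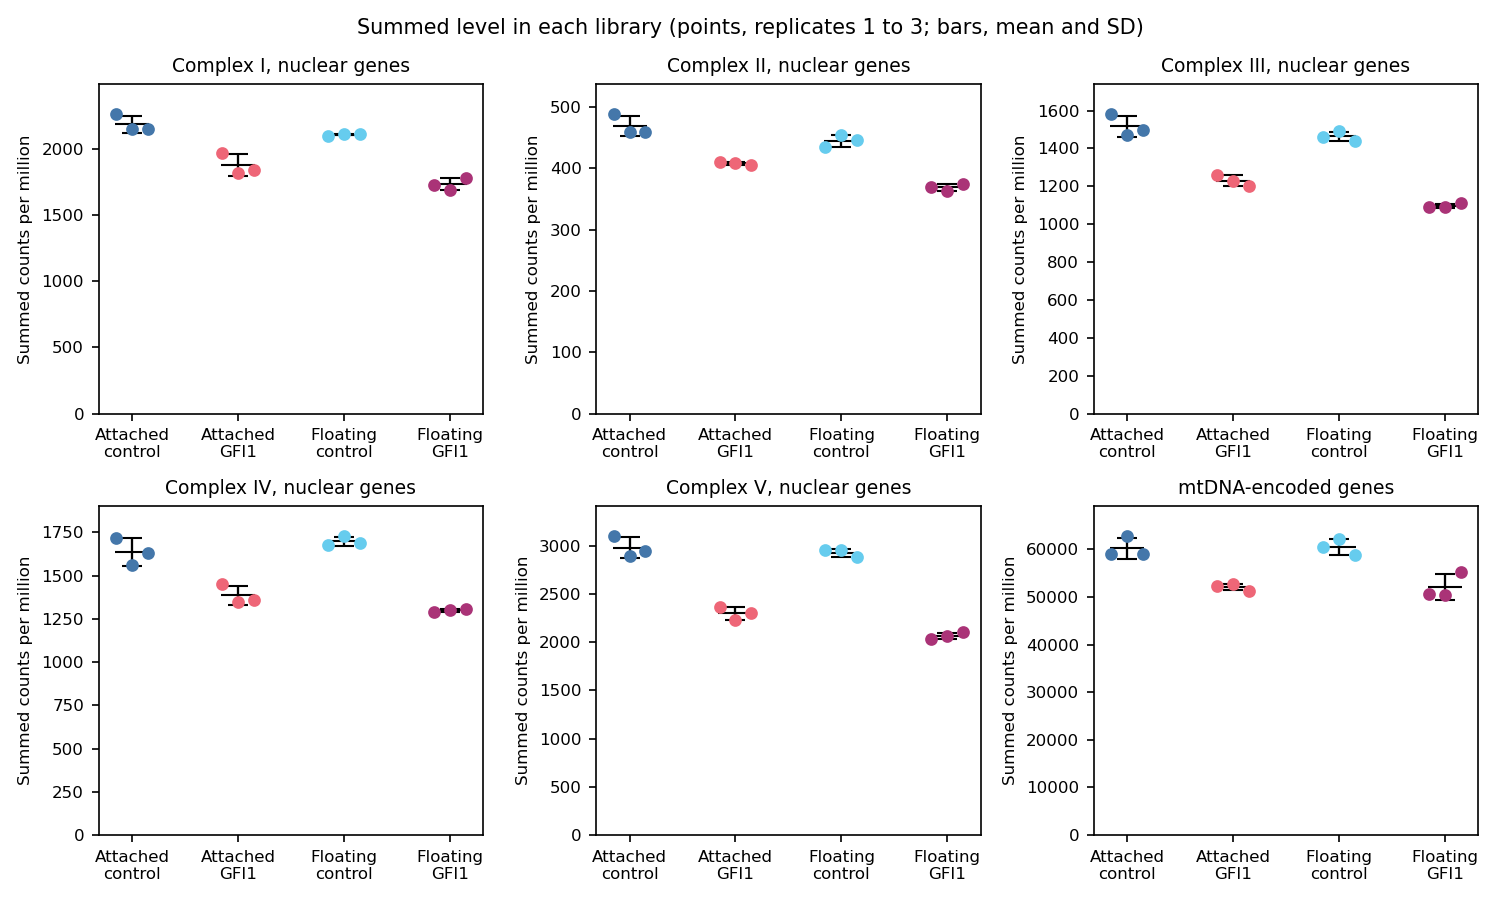
Summed CPM (y axis, from 0) of the nuclear members of each complex and of the 13 mitochondrially encoded members in the 12 libraries, by group (x axis). Points are libraries, and bars are the mean and SD of 3. On this scale each of the 6 sums is lower in the GFI1 than in the control libraries of the same state, while as a share of all counts the mitochondrial members overlap in floating cells.

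Apart from MT-ATP8, mitochondrially encoded mRNAs were far more abundant than nuclear ones per length. MT-ATP8 had 71.9 to 155 CPM per kilobase, below the nuclear ATP5F1B (301 to 507). MT-CO1, the catalytic subunit of complex IV, reached 11700 ± 248 CPM per kilobase in attached control cells, and the 13 members together made up 5.21% to 5.94% of all counts. Their sum was 58900 to 62800 CPM in attached control, 51300 to 52600 in attached GFI1, 58700 to 62100 in floating control and 50300 to 55200 in floating GFI1 libraries. GFI1 and control libraries of the same state did not overlap in this TMM-scaled sum. As a share of all counts they did in floating cells, where floating GFI1 libraries had 5.36%, 5.21% and 5.79% and floating controls 5.77%, 5.92% and 5.69%, and not in attached cells (5.4% to 5.49% against 5.53% to 5.94%). Mitochondrial ribosomal RNA, 0.868% to 1.15% of counts, was likewise lower in GFI1 libraries (0.884% ± 0.0249 attached and 0.898% ± 0.00808 floating) than in controls (1.08% ± 0.0379 and 1.11% ± 0.04; SD, n = 3). Its counts in poly-A selected RNA depend on what the selection carried over, and its part in the results was not tested. The ratio of mitochondrial to nuclear member counts was 6.45 to 7.37 in attached control, 7.04 to 7.47 in attached GFI1, 6.85 to 7.12 in floating control and 7.73 to 8.27 in floating GFI1 libraries. Attached groups overlapped in this ratio, and floating GFI1 libraries lay above the other 9.

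The mitochondrial mRNAs did not move as 1 block, although they share precursors. With GFI1, 9 of 13 fell and MT-CYB rose in attached cells (median -0.22; 32.8% of all genes fell and 29.5% rose), and 7 fell in floating cells (median -0.13; 31.1% of all genes fell and 29.3% rose), where none rose by edgeR, 1 was higher at an unadjusted p under 0.05 and DESeq2 called 0 higher. Without TMM, 5 fell and 1 rose in attached cells, where 24.5% of all genes fell and 39.3% rose. In floating cells 4 fell and 3 rose, where 24.2% of all genes fell and 38.4% rose. The medians of the 13 without TMM were -0.07 and 0.00, the latter above 0. All 3 MT-CO genes, which encode the core of complex IV, fell in both states. MT-CO3 had 7750, 7600 and 7020 CPM in attached control, 5240, 5760 and 5530 in attached GFI1, 7520, 7960 and 7110 in floating control and 5190, 5290 and 5410 in floating GFI1 cells. Its groups did not overlap between genotypes, and it fell by 0.44 ± 0.05 and 0.51 ± 0.05 on the log2 scale (adjusted p = 1.87e-08 and 1.3e-09). MT-CO2 fell by 0.30 and 0.28, and MT-CO1 by 0.19 and 0.27, where the attached call of MT-CO1 was lost without TMM.

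MT-ATP6, which encodes the channel subunit of complex V, fell by 0.34 and 0.27. MT-ATP8 had 14.9 to 32 CPM and passed no test. Its gene of 207 bases shares 46 with MT-ATP6, so these reads could be split between the pair, and the counts of the pair do not stand for separate mRNAs. Of the 7 MT-ND genes of complex I, 5 fell in attached and 3 in floating cells with TMM, whereas without it 2 fell in attached cells and 0 fell and 2 rose in floating cells. MT-ND5, a proton-pumping subunit, fell by 0.32 ± 0.05 and 0.19 ± 0.05, the floating call being lost without TMM (-0.06, adjusted p = 0.243). MT-ND2 fell by 0.22 and 0.12, and MT-ND4 by 0.15 and 0.13, but without TMM MT-ND2 in floating cells (0.01) and MT-ND4 in both states (0.00) lay above 0. The attached calls of MT-ND2 and MT-ND3 were lost without TMM as well (-0.07 and -0.08). MT-ND4 also lost its attached call without attached control replicate 2 (-0.11, adjusted p = 0.0562) or attached GFI1 replicate 3 (-0.12, adjusted p = 0.069). The floating calls of MT-ND2 and MT-ND4 were lost when any 1 of 3 libraries was left out, with floating GFI1 replicate 1 among them for both (-0.09, adjusted p = 0.122, and -0.08, adjusted p = 0.175). MT-ND1 (-0.07 and 0.09) and MT-ND4L (-0.06 and -0.13) did not pass the test in either state. The MT-ND4L gene overlaps MT-ND4 on the same strand, so the counts of these genes do not stand for separate mRNAs either. MT-CYB, cytochrome b of complex III, had 3240, 3650 and 3270 CPM in attached control and 4050, 3910 and 3890 in attached GFI1 cells, 3900, 3900 and 3660 in floating control and 3870, 3750 and 4360 in floating GFI1 cells. It rose by 0.22 ± 0.05 in attached cells (adjusted p = 0.000787) and had a fold change of 0.07 ± 0.05 in floating cells (adjusted p = 0.294), where the groups overlapped. Nuclear copies of mitochondrial genes can take reads of this kind: MTND2P28 held 10.1% as many counts as MT-ND2 and MTATP6P1 held 5.9% as many as MT-ATP6.

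**Figure D4:**
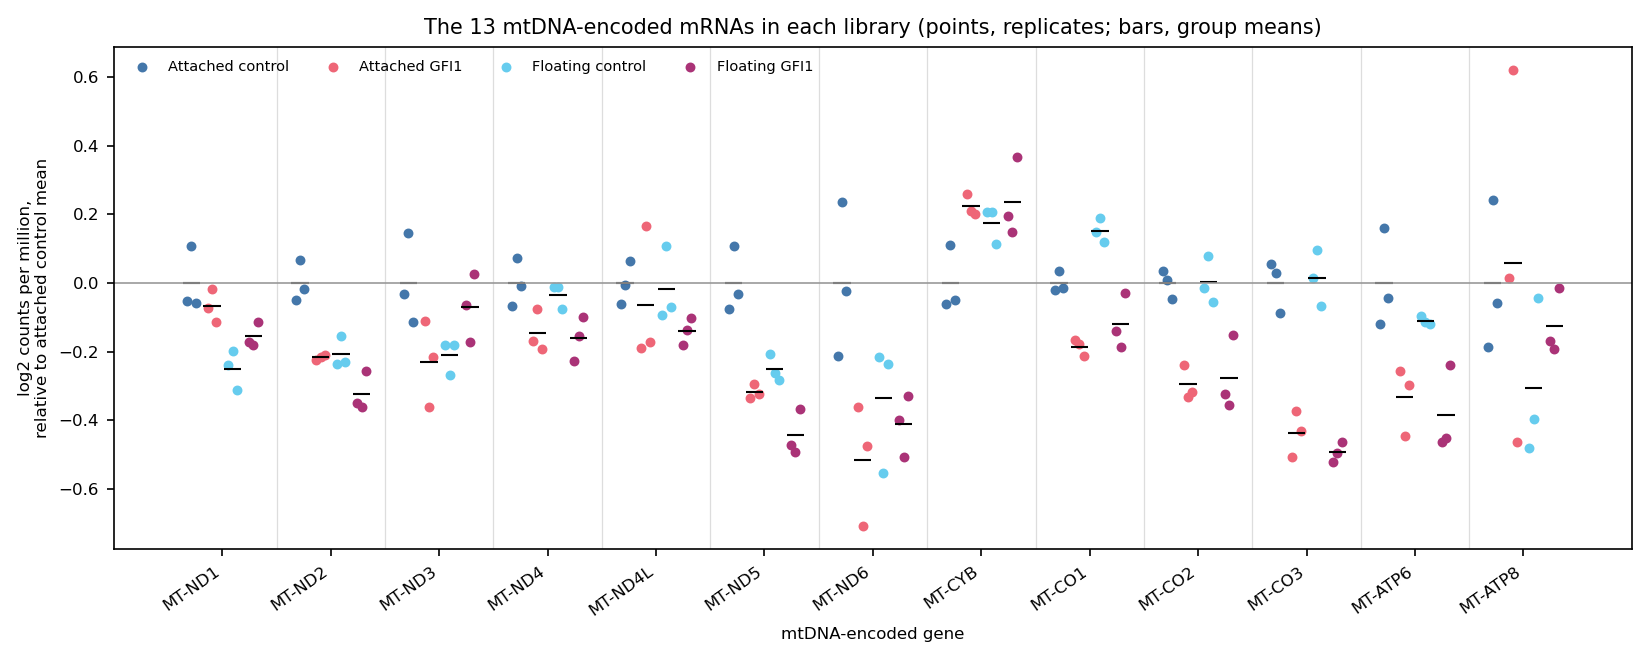
Log2 CPM (scaled by TMM) of the 13 mitochondrially encoded members relative to their attached control mean (y axis), by gene (x axis) and group (colour). Points are libraries and bars the group means. MT-CO3 is lower in all 6 GFI1 libraries than in the 6 controls, and MT-CYB is higher in the 3 attached GFI1 than in the 3 attached control libraries.

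With suspension of control cells, nuclear members fell at a share near that of all genes (21.3% against 20.5%) and rose at a smaller one (10.7% against 19.6%). By the same edgeR test, 16 nuclear members fell and 8 rose, where 20.5% of all genes fell and 19.6% rose, and the median was -0.02 against 0.01 over all genes. Without TMM, 14 fell and 12 rose, where 18.7% of all genes fell and 21% rose. Complex I had 8 lower and 3 higher, complex II 2 lower, complex III 3 lower and 1 higher, and complex V 3 lower and 1 higher. Complex IV had 3 members higher (COX7B, COX7C and COX6C, of which COX7C was named after its values were seen) and 0 lower by edgeR, by DESeq2 or at an unadjusted p under 0.05, and a median of 0.09. All 3 rises were lost with a gene length offset (0.14, 0.06 and 0.11) and without attached control replicate 2 (0.08, 0.08 and 0.15, adjusted p = 0.288, 0.213 and 0.0663) or floating control replicate 2 (0.14, 0.11 and 0.12, adjusted p = 0.145, 0.0987 and 0.137). Of the 8 higher calls, 2 were kept in each refit, those of UQCRC2 and NDUFA5. NDUFA13 of complex I had the highest fold change of the nuclear members (0.57), at 2.14 to 4.39 CPM in these libraries. Its call was among those not kept in each refit. NDUFS8 had the lowest fold change of the nuclear members (-0.33 ± 0.05, adjusted p = 1.54e-05), and CYC1 the lowest of complex III (-0.23 ± 0.05, adjusted p = 0.000221). UQCRC2, a core subunit of complex III, rose by 0.24 ± 0.04 (adjusted p = 7.05e-05), and COX7B rose by 0.19 (adjusted p = 0.0258). SDHB fell by 0.20 (adjusted p = 0.0105), a call that was lost without attached control replicate 1 (-0.11, adjusted p = 0.13). That library was the highest of its group for most nuclear members, and without it 7 in place of 16 nuclear members fell.

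In GFI1 cells, 27 nuclear members fell with suspension, where 16.3% of all genes fell and 15% rose, and the median was -0.11 against 0.00 over all genes. None rose by edgeR, 1 was higher at an unadjusted p under 0.05, and DESeq2 called 26 lower and 0 higher. By complex, 9 members of I, 2 of II, 6 of III, 2 of IV and 8 of V fell. CYC1 (-0.33 ± 0.05, adjusted p = 4.84e-06), NDUFS8 (-0.32 ± 0.05, adjusted p = 4.01e-05) and ATP5MC1 (-0.31 ± 0.06, adjusted p = 0.000175) had the lowest fold changes of their complexes, and COX4I1 fell by 0.20. SDHB fell by 0.23 (adjusted p = 0.00784), a call lost without attached GFI1 replicate 2 (-0.17, adjusted p = 0.072). The 2 suspension comparisons use separate libraries, and 12 nuclear members fell in both, without a share of all genes to set beside them. ATP5MC1 fell in control cells too, by 0.15, but that call was lost without attached control replicate 1 (-0.13, adjusted p = 0.113), attached control replicate 3 (-0.16, adjusted p = 0.0556) or floating control replicate 2 (-0.13, adjusted p = 0.123).

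Among mitochondrial mRNAs, MT-ND genes were the ones that fell with suspension of control cells. MT-ND1 (-0.25), MT-ND2 (-0.21), MT-ND3 (-0.21), MT-ND5 (-0.25) and MT-ND6 (-0.34) fell, 5 of the 7 MT-ND genes, where 20.5% of all genes fell, while MT-CYB rose by 0.17 and MT-CO1 by 0.15. Both rises were lost with a gene length offset (0.12, adjusted p = 0.107, and 0.10, adjusted p = 0.119). The calls of MT-ND3 (-0.14, adjusted p = 0.0923) and MT-ND6 (-0.21, adjusted p = 0.0652) were lost without attached control replicate 2 and with DESeq2 (adjusted p = 0.0536 and 0.0577), and that of MT-CYB without attached control replicate 1 (0.14, adjusted p = 0.0643) or replicate 3 (0.14, adjusted p = 0.0695), or floating control replicate 1 (0.15, adjusted p = 0.0502). In GFI1 cells MT-ND5 alone fell, by 0.12 (adjusted p = 0.0456), and it lost its call when any of 9 of the 12 libraries was left out. No mitochondrial mRNA rose in GFI1 cells by edgeR or DESeq2, and 1 was higher at an unadjusted p under 0.05.

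The interaction is the suspension effect in GFI1 cells minus that in control cells. It tests directly whether the suspension effect differs between genotypes, or equally whether the GFI1 effect differs between states. Of the nuclear members, 5 had a lower and 1 a higher suspension effect in GFI1 cells, where 6.01% of all genes were lower and 4.76% higher, and the median was -0.11 against 0.00. At an unadjusted p under 0.05, 18 nuclear members were lower and 1 was higher. Of all 17829 genes, 2136 were lower and 1919 higher at that cut. UQCRC2 (ENSG00000140740, chr16:21952660-21983660, plus strand) had 227, 226 and 214 CPM in attached control, 186, 190 and 181 in attached GFI1, 260, 275 and 252 in floating control and 173, 182 and 182 in floating GFI1 cells. Floating controls were the highest of the 4 groups without overlap, while the GFI1 groups overlapped with each other. The interaction of UQCRC2 was -0.29 ± 0.06 (adjusted p = 0.00225), and its GFI1 effect was -0.26 in attached and -0.55 in floating cells. This call held in every alternative other than a minimum fold of 1.5, and without any 1 library.

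The other nuclear calls of the interaction depended on single libraries. COX7B had 126, 96 and 114 CPM in attached control, 119, 107 and 109 in attached GFI1, 121, 135 and 126 in floating control and 102, 101 and 103 in floating GFI1 cells, an interaction of -0.32 ± 0.09 (adjusted p = 0.0271). It was lost without attached control replicate 2 (-0.22, adjusted p = 0.0903), attached GFI1 replicate 1 (-0.27, adjusted p = 0.0916) or floating control replicate 2 (-0.27, adjusted p = 0.0938). NDUFB1, an accessory subunit of complex I, went the other way, with 43.9, 41.6 and 39.7 CPM in attached control, 36.1, 32.8 and 29.6 in attached GFI1, 33.6, 37.1 and 37.1 in floating control and 37.2, 33.4 and 37.5 in floating GFI1 cells. Its GFI1 effect was -0.35 in attached and 0.00 in floating cells, and the interaction of 0.35 ± 0.10 (adjusted p = 0.0205) was lost without attached control replicate 1 (0.32, adjusted p = 0.0607), attached GFI1 replicate 3 (0.29, adjusted p = 0.073), floating control replicate 1 (0.31, adjusted p = 0.0688) or floating GFI1 replicate 1 (0.32, adjusted p = 0.067).

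Of the mitochondrial members, MT-ND3 and MT-ND6 had a higher suspension effect in GFI1 than in control cells. MT-ND3 (mitochondrial positions 10059 to 10404) had 766, 866 and 724 CPM in attached control, 725, 610 and 675 in attached GFI1, 691, 651 and 691 in floating control and 749, 695 and 798 in floating GFI1 cells. GFI1 libraries were the lower ones in attached cells, with overlap, and the higher ones in floating cells. The interaction of MT-ND3 was 0.37 ± 0.09 (adjusted p = 0.00611) and held in every alternative other than a minimum fold of 1.5, and without any 1 library. MT-ND6, the single mRNA encoded on the light strand, had 791, 1080 and 902 CPM in attached control, 714, 561 and 660 in attached GFI1, 789, 625 and 779 in floating control and 696, 645 and 730 in floating GFI1 cells. Its interaction of 0.43 ± 0.13 (adjusted p = 0.0277) was lost without attached control replicate 2 (0.31, adjusted p = 0.115), attached GFI1 replicate 2 (0.35, adjusted p = 0.0884), floating control replicate 2 (0.34, adjusted p = 0.102) or floating GFI1 replicate 1 (0.42, adjusted p = 0.0678).

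Genes that build, express or regulate the chain were described from lists of other pathway genes. Of 56 tested assembly factors of complexes I to V, 33 fell and 5 rose with GFI1 in attached cells and 36 fell and 5 rose in floating cells, where 32.8% and 31.1% of all genes fell and 29.5% and 29.3% rose. Their medians were -0.23 and -0.26. Without TMM, 19 and 27 fell and 7 rose in each state, where 24.5% and 24.2% of all genes fell and 39.3% and 38.4% rose. Complex I assembly factors fell in 14 and 15 of 18 cases (8 and 12 without TMM). The lowest adjusted p among them in attached cells belonged to NDUFAF2, which joins late in assembly and had 24.4, 28.3 and 24.4 CPM in attached control, 11.5, 9.37 and 9.56 in attached GFI1, 22.6, 21.3 and 20.5 in floating control and 7.56, 8.16 and 7.16 in floating GFI1 cells. All GFI1 libraries of NDUFAF2 were below all controls, by -1.35 ± 0.09 and -1.49 ± 0.10 on the log2 scale (adjusted p = 2.27e-12 and 1.21e-12). Among complex IV factors 12 and 14 of 23 fell (6 and 9 without TMM) and 3 rose in each state (4 without TMM), one of them COA6, which serves copper delivery (0.45 and 0.54). The complex V factor ATPAF1, a chaperone of the F1 head, rose by 0.25 in each state, while F1 subunits fell.

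Of 25 genes for mitochondrial transcription, RNA processing and replication, 16 fell and 2 rose with GFI1 in attached and 14 fell and 2 rose in floating cells. Of all genes, 32.8% and 31.1% fell and 29.5% and 29.3% rose. The 2 medians were -0.19 and -0.25, against -0.01 and 0.01 over all genes. Without TMM, 10 and 12 fell and 5 and 4 rose, where 24.5% and 24.2% of all genes fell and 39.3% and 38.4% rose. TFAM, which packages the mitochondrial genome and starts its transcription, fell by 0.59 ± 0.04 and 0.63 ± 0.04 (adjusted p = 1.19e-11 and 5.83e-12). Of 13 tested subunits and isoforms outside the symbol rule, 6 fell and 1 rose in attached and 8 fell and 2 rose in floating cells (5 and 7 fell and 3 rose in each without TMM). The shares of all genes are those just given. CYCS, the electron carrier cytochrome c, had 371, 372 and 357 CPM in attached control, 222, 214 and 210 in attached GFI1, 278, 284 and 287 in floating control and 163, 149 and 162 in floating GFI1 cells. The 4 groups of CYCS did not overlap, and it fell by 0.77 ± 0.04 and 0.84 ± 0.04 with GFI1 and by 0.37 and 0.44 with suspension. ATP5IF1, the inhibitor of the ATP synthase, rose by 0.30 and 0.41 with GFI1.

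Of 10 nuclear regulators, 6 fell and 3 rose with GFI1 in attached cells and 4 fell and 1 rose in floating cells. Of all genes, 32.8% and 31.1% fell and 29.5% and 29.3% rose. Without TMM, 4 fell and 3 rose in attached and 3 fell and 3 rose in floating cells. Of all genes, 24.5% and 24.2% then fell and 39.3% and 38.4% rose. MYC fell by 1.19 and 1.59 (adjusted p = 1.34e-16 and 1.16e-18). PPARGC1A, a coactivator of mitochondrial biogenesis named after its values were seen, had 11.7, 13.3 and 11.8 CPM in attached control, 1.97, 2.31 and 1.9 in attached GFI1, 18.3, 19.3 and 15.8 in floating control and 1.93, 2.1 and 2.34 in floating GFI1 cells. GFI1 libraries were far below the controls, with log2 fold changes of -2.57 ± 0.14 and -3.06 ± 0.13 (adjusted p = 1.22e-14 and 1.54e-16), and it rose by 0.53 with suspension in control cells (adjusted p = 0.000128). Of 10 tested hypoxia-linked mitochondrial genes, 6 rose with suspension in each genotype, with and without TMM, where 19.6% and 15% of all genes rose, among them BNIP3 (1.22 and 1.12) and BNIP3L (1.60 and 1.40), receptors of mitochondrial autophagy, and MXI1 (1.46 and 1.08), an antagonist of MYC. LONP1, the matrix protease of this list, fell by 0.29 with suspension in control cells.

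**Figure D5:**
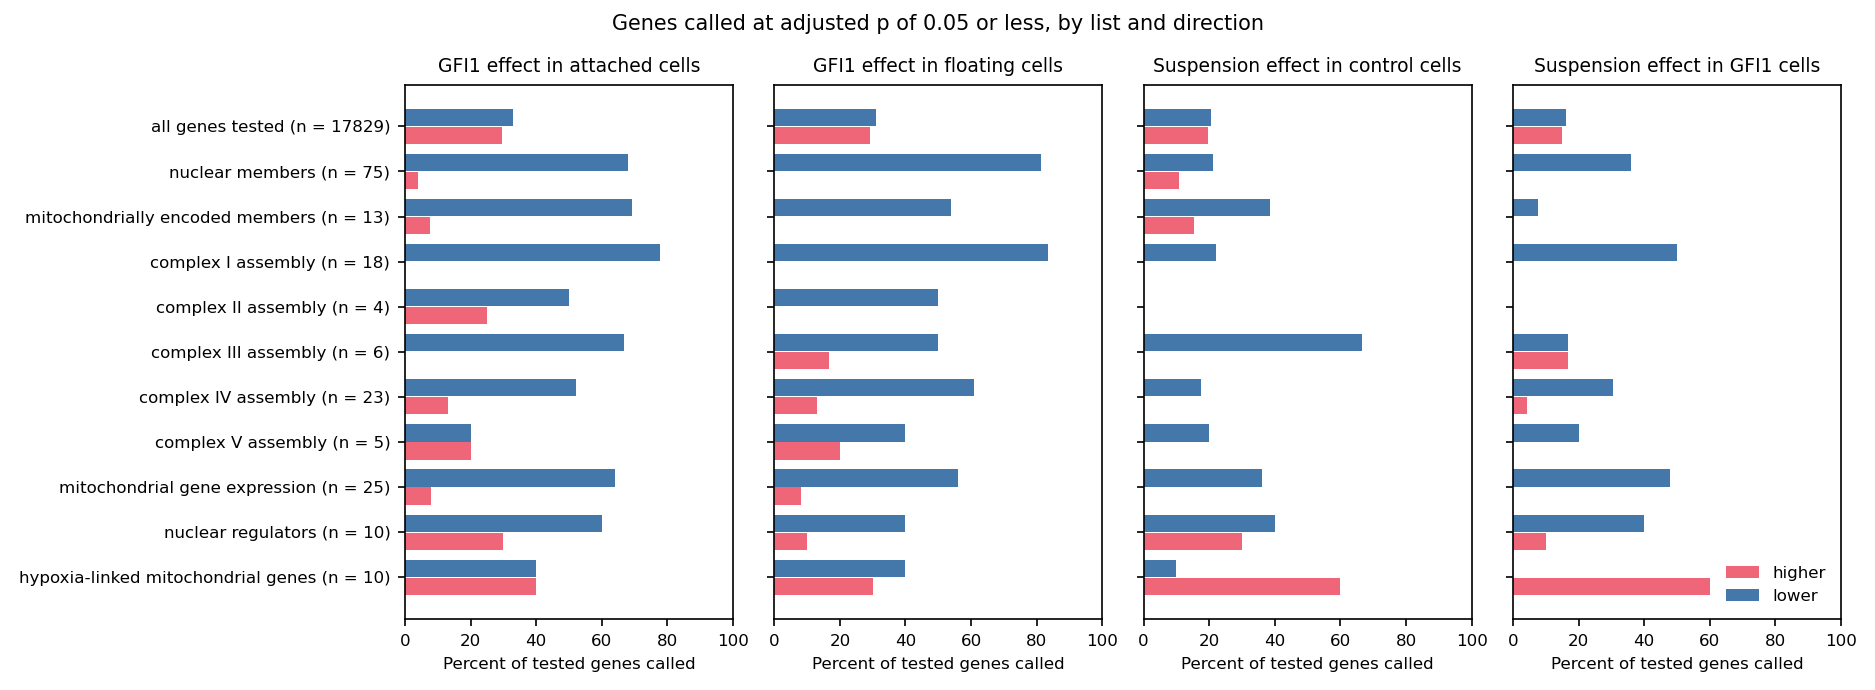
Percent of the tested genes (x axis) called higher or lower at an adjusted p of 0.05 or less in each set (y axis), for the 4 pairwise comparisons. The sets are all genes tested, the nuclear and mitochondrially encoded members and lists of other pathway genes. Under GFI1, 68% and 81.3% of nuclear members were called lower in attached and floating cells, against 32.8% and 31.1% of all genes (42.7% and 62.7% against 24.5% and 24.2% without TMM), and 60% of the hypoxia-linked genes were called higher with suspension in each genotype.

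Counts of called members are given with and without the NRF1 letters as a description. Of the 20 genes with them, 15 fell with GFI1 in attached cells (median -0.23) and 17 in floating cells (-0.32), and of the 41 without, 27 (-0.24) and 34 (-0.34) fell. Of all genes tested, 32.8% and 31.1% fell. By complex the letters stood in 8 of 31 promoters of complex I, 2 of 3 of complex II, 4 of 7 of complex III, 1 of 9 of complex IV and 5 of 11 of complex V. The part of NRF1 in the fold changes was not tested. These are descriptions of letters in a window, and binding was not measured in these libraries.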

How the data were processed

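RNA-Seq libraries of A549 cells were compared in 4 groups of 3, taken with their replicate numbers from the sample labels. The deposited values are raw counts of fragments per gene. In the study's methods the authors list FastQC, Hisat2 alignment to GRCh38/hg38 and featureCounts, whereas the submitters' processing notes name Bowtie2, HTSeq and hg38. Which pair made the counts cannot be told, and the annotation release and the strandedness of counting are not given in the sources used here. All 12 value columns were used (0 others).

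The analysis used edgeR 4.0.16 under R 4.3.3. After filterByExpr (minimum count 10, minimum total 15) and TMM scaling, the 12 libraries entered a single quasi-likelihood model of 4 group means, whose biological coefficient of variation was 4.86%, with 5 two-sided contrasts and Benjamini-Hochberg adjustment within each over all 17829 tested genes. Calls were made at an adjusted p of 0.05 or less, with no fold minimum. Log2 fold changes carry SEs, CPM values are scaled by TMM, and CPM per kilobase uses the gene lengths of the deposited table, as do gene positions. At totals of 17014188 to 20748677, counting error is small for members of 100 CPM and larger for NDUFA7, NDUFA13 and NDUFV2. Exon overlap was taken from GENCODE and promoters from RefSeq. The fit was tested on simulated data.

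The members and lists were chosen with earlier results of these data known. Named were all mitochondrially encoded and SDH members, in each contrast the nuclear member with the highest and lowest fold change of complexes I, III, IV and V, in each list and pairwise contrast the called gene of lowest adjusted p in each direction, and GFI1. Other names are marked as chosen later. Alternatives were RLE size factors, upper quartile scaling, library totals alone, scaling on nuclear genes only, DESeq2 1.42.0, an unfiltered table, a minimum of 10 counts in all libraries, fits on only the groups of a contrast, an offset by gene length (loess, span 0.5), the replicate number as a block alone or with that offset, a 1.5-fold minimum, and omission of each library.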

Additional observations from a re-analysis of the deposited data

Results flagged for a closer look

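Suspension effects that differed between GFI1 and control cells by the interaction test (edgeR's quasi-likelihood test, Benjamini-Hochberg adjusted over all genes) are listed here as the effect in GFI1 cells minus that in control cells on the log2 scale. Among nuclear members, it was -0.32 for COX7B (adjusted p = 0.0271), -0.29 for UQCRC2 (adjusted p = 0.00225), -0.20 for NDUFB4 (adjusted p = 0.0357), -0.20 for COX4I1 (adjusted p = 0.0413), -0.20 for ATP5F1C (adjusted p = 0.0354) and 0.35 for NDUFB1 (adjusted p = 0.0205). NDUFB4 and ATP5F1C, an inner membrane subunit of complex I and the shaft of the ATP synthase head, were named after their values were seen. Both calls, and that of COX4I1, were lost with no low-count filter, with a gene length offset, and when 1 library was left out, for 6, 8 and 7 of the 12 libraries (adjusted p up to 0.123, 0.113 and 0.142). The COX7B call was lost without attached control replicate 2 (-0.22), attached GFI1 replicate 1 (-0.27) or floating control replicate 2 (-0.27). The NDUFB1 call was lost without attached control replicate 1 (0.32), attached GFI1 replicate 3 (0.29), floating control replicate 1 (0.31) or floating GFI1 replicate 1 (0.32). UQCRC2 kept its call in each of these settings. Among mitochondrial members it was 0.37 for MT-ND3 (adjusted p = 0.00611) and 0.43 for MT-ND6 (adjusted p = 0.0277). The MT-ND6 call was lost with DESeq2 (0.42, adjusted p = 0.18) and without attached control replicate 2 (0.31), attached GFI1 replicate 2 (0.35), floating control replicate 2 (0.34) or floating GFI1 replicate 1 (0.42).

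Among other pathway genes it was -0.40 for MYC (adjusted p = 0.000487), -0.20 for the complex I assembly factor DMAC2 (adjusted p = 0.044), -0.20 for the corepressor NRIP1 (adjusted p = 0.037), 0.20 for the protease LONP1 (adjusted p = 0.0219) and 0.33 for PPRC1, a coactivator related to PPARGC1A (adjusted p = 0.00334). MYC fell with suspension in both genotypes, by 0.30 in control and 0.70 in GFI1 cells, and PPRC1 by 0.65 and 0.32. The DMAC2 and NRIP1 calls were lost when any 1 of 9 and of 8 libraries was left out (adjusted p up to 0.136 and 0.167). The LONP1 call was lost without attached GFI1 replicate 2 (0.19, adjusted p = 0.0573), attached GFI1 replicate 3 (0.20, adjusted p = 0.0533) or floating GFI1 replicate 2 (0.16, adjusted p = 0.0885).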

How the results depend on the processing

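With library totals alone, lower nuclear members under GFI1 numbered 32 in attached cells, higher ones 9 attached and 4 floating, and called mitochondrial members 6 in attached cells. Asking also for 1.5-fold left 5 lower nuclear members in attached and 8 in floating cells and 0 for each other count. Upper quartile scaling, and at least 10 counts in every library, each gave 5 higher nuclear members in attached GFI1 cells. With suspension of control cells, the gene length offset gave 2 higher nuclear members, also with the replicate block. In GFI1 cells, higher nuclear members numbered 1 with no low-count filter or only the groups compared, and called mitochondrial members 3 with no filter and 2 with DESeq2 or the length offset. For the interaction, lower nuclear members numbered 2 with no filter and 2 with the length offset, with or without the block, and DESeq2 called 1 mitochondrial member. The cause of these changes was not tested.

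The replicate numbers did not pair the samples: same-numbered deviations had a median correlation of -0.00017 and a highest of 0.0311 over 18 pairs, and 3 of 12 libraries correlated best with their own number. Under the replicate block, 0 mitochondrial members were called for suspension in GFI1 cells. It moved no other count of calls past 1.5 times.

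Leaving out each library gave 44 to 51 lower, 1 to 4 higher nuclear and 9 to 11 mitochondrial members under GFI1 in attached cells, and 58 to 62, 0 to 0 and 5 to 9 in floating cells. With suspension these were 7 to 16, 4 to 9 and 5 to 8 in control cells, 19 to 29, 0 to 2 and 0 to 2 in GFI1 cells, and 1 to 9, 0 to 2 and 1 to 3 for the interaction. Among named genes called in either fit, directions turned with library totals alone for MT-ND2 in floating (0.01) and MT-ND4 in attached (0.0020) and floating cells (0.0036). They also turned for UQCRB in floating cells (0.12), NDUFAB1 in attached cells (0.14) and the mitochondrial median in floating cells (0.0044). That median also turned for suspension in GFI1 cells without attached GFI1 replicate 2 (0.013), and for the interaction without attached control replicate 2 (-0.016) or floating GFI1 replicate 3 (-0.010). The suspension median in GFI1 cells was -0.073 without floating GFI1 replicate 3. Of the named values, 8038 kept their side of the threshold, 275 lost and 113 gained a call. The 8038 include values that turned direction without a call in either fit, and these are not listed above. Nor are turns of medians no larger than their SD between replicates.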

Other observations

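Counts of genes that build and express the chain are given here for suspension. Of 56 tested assembly factors, 13 (23.2%) fell in control cells, near the 20.5% of all genes, and 18 (32.1% against 16.3%) in GFI1 cells, and 0 and 2 rose (DESeq2 also called 0 higher in control cells, as did an unadjusted p under 0.05). Of the 25 genes of mitochondrial transcription, RNA processing and replication, 9 and 12 fell and 0 rose in each genotype, also at an unadjusted p under 0.05. By the adjusted p, 20.5% and 16.3% of all genes fell and 19.6% and 15% rose. TFAM fell by 0.19 ± 0.04 in control and 0.23 ± 0.05 in GFI1 cells (adjusted p = 0.000749 and 0.000251, edgeR). Of 6 complex III assembly factors, 4 fell in control cells, and 1 fell and 1 rose in GFI1 cells, and the interaction called 0 of the 6 by edgeR or DESeq2 (1 higher and 1 lower at an unadjusted p under 0.05). Under GFI1, 2 of 4 complex II assembly factors fell in each state, among them SDHAF4 (-0.80 and -0.76), and 1 rose in attached cells. Of 6 complex III factors, 4 fell in attached cells, and 3 fell and 1 rose in floating cells. Of 5 complex V factors, 1 fell in attached and 2 in floating cells, and 1 rose in each. Under GFI1, 32.8% and 31.1% of all genes fell and 29.5% and 29.3% rose. Without TMM, 2 complex II factors fell in each state and 1 rose in attached cells. Complex III factors then fell in 2 and 3 cases and rose in 0 and 1, and 1 complex V factor fell and 1 rose in each state. Of all genes, 24.5% and 24.2% then fell and 39.3% and 38.4% rose.

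Calls of nuclear members differed in how many settings kept them. Of the 51 lower in attached GFI1 cells, 42 were kept without any 1 library and 32 also in all other settings but the fold minimum. Of the 61 lower in floating GFI1 cells, these counts were 56 and 47. Of the 16 lower with suspension in control cells they were 5 and 5, and of the 27 lower with suspension in GFI1 cells 12 and 12.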
